A study of Homo sapiens with 2 samples.

Results

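The genes described here copy DNA: the factors that license replication origins, the helicase they load, and proteins that work at the replication fork. They were chosen by gene symbol in the platform annotation. The symbols were MCM, ORC, GINS, RFC, RPA, PRIM, POLA, POLD, POLE, FEN or LIG followed by a digit, and 10 further names such as CDC6, PCNA and TIPIN. No cut on their values was used, but the choice was made with earlier results of these data known. The annotation used here named 22 probe sets of 21 such genes, of 14812 genes in all. These are CDC6 and CDT1, MCM2 to MCM10, CDC7, CDC45, GINS1 to GINS4, PCNA, FEN1, TIPIN and WDHD1. Of 53 genes listed by role, the other 32 had no named row and were not analysed here. They are the 6 origin recognition subunits, geminin, the 11 listed subunits of polymerases alpha, delta and epsilon and of primase, the 5 clamp loader subunits, replication protein A, the DNA ligases and both CHAF1 subunits. POLE itself has no digit in its symbol, so the rule does not take it. The planned comparison of origin licensing with polymerases and clamp loading therefore rests, on its second side, on the sliding clamp PCNA alone.

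RNA came from BE(2)C, an established human neuroblastoma cell line in which MYCN is amplified. One culture received an siRNA against MYCN (MYCN2, from Qiagen) and the other a non-targeting ON-TARGETplus control siRNA from Dharmacon; both were transfected with a Lipofectamine reagent, and RNA was taken 36 hours later. Each group is 1 array, an Affymetrix Human Gene 2.0 ST array, so no value has a replicate and none has a p-value; 1 array a group is what limits the precision. The siRNAs of the groups differ in supplier as well as in target, and 1 MYCN siRNA was used, so effects of the siRNA and of its target cannot be told apart. MYCN's own level was not analysed here.

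Replication starts when the origin recognition complex, CDC6 and CDT1 load a pair of MCM2-7 rings on DNA before S phase, the step called licensing. The kinase CDC7 and a set of firing factors then attach CDC45 and GINS to each ring, which turns it into the active helicase at the fork, where PCNA tethers polymerases and FEN1 trims the lagging strand. Many of these genes are transcribed as cells pass from G1 into S phase under E2F factors, and MYC family proteins bind the E-box sequence.

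Because nearly all of these genes were lower together, their promoters are shown first, as windows of 300 bases (250 before to 50 after the start) from RefSeq on GRCh38.p14. A window was given for 18 of the 21 genes. The 6 shown span the range of differences: CDC6 (chr17:40287629-40287928, + strand) and WDHD1 (chr14:55027050-55027349, - strand) were furthest below the control, MCM2 (chr3:127598161-127598460, + strand) and MCM3 (chr6:52284693-52284992, - strand) are the most and least lowered of the MCM2-7 ring, MCM6 (chr2:135876394-135876693, - strand) holds the most E2F matches, and FEN1 (chr11:61792661-61792960, + strand) was among the least lowered. Each reads 5′ to 3′ on the gene's strand, and capitals mark E2F and E-box matches.

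CDC6: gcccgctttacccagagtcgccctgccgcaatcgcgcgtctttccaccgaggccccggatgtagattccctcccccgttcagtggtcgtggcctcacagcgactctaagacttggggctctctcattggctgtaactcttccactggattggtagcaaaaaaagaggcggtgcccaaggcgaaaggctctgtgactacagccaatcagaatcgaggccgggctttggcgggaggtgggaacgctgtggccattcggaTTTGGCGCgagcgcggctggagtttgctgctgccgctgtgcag

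MCM2: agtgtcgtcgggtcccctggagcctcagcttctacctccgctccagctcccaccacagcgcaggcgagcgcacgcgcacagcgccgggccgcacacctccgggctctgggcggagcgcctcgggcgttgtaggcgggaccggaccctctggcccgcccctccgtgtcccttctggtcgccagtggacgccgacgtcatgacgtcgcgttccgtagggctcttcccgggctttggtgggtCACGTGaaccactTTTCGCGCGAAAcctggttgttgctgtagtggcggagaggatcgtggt

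MCM6: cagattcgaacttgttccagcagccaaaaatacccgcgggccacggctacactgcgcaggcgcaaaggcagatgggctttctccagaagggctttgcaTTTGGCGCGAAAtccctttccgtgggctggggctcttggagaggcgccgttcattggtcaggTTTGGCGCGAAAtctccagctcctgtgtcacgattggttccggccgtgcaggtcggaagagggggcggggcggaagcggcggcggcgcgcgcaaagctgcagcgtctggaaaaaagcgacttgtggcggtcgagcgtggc

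MCM3: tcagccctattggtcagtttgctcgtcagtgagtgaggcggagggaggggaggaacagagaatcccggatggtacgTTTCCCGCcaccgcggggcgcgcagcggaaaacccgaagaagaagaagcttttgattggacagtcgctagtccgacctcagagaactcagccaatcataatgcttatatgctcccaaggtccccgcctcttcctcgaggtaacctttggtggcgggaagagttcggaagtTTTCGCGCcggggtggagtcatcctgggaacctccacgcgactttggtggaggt

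WDHD1: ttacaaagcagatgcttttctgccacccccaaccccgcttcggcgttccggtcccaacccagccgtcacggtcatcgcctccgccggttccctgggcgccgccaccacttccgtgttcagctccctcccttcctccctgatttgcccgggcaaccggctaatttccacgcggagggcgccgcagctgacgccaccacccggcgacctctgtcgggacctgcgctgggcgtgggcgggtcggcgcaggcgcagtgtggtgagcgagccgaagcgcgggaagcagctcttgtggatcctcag

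FEN1: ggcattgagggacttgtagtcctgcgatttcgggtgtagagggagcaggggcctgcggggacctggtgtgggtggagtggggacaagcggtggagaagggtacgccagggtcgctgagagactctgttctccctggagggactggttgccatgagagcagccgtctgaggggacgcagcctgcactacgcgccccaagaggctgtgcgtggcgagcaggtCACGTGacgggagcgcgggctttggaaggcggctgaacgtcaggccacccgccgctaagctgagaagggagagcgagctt

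An E2F match was any of TTTCCCGC, TTTGGCGC, TTTCGCGC and TTTGCCGC on either strand, which can overlap each other. The other motifs were searched on both strands too. At least 1 was found in a window of 13 of the 18 genes (72.2%), against 6.16% of the 8152 measured genes with a window and 3.31% of all 35116 windows of this length in the table. MCM6 held 4 matches, as overlapping pairs on opposite strands at 2 places, MCM2 held such a pair just after its start, and CDC6 held 1. None was found in WDHD1, MCM10, MCM9, CDC45 or FEN1. The genes with a match had a median log2 difference of −0.41 and those without one −0.51. Whether the size of the difference goes with a match was not tested. Among all measured genes, the 502 with a match had a median difference of −0.02 and those without one 0.02.

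The E-box CACGTG lay in the windows of 4 of the 18 genes, MCM2, MCM7, MCM8 and FEN1 (22.2%), against 12.3% of measured genes and 7.26% of all windows. These 4 had a median difference of −0.26, against −0.48 for those without it. Among all measured genes it was the other way, −0.03 for the 1004 with an E-box and 0.03 for those without. Whether the size of the difference goes with an E-box was not tested. CCAAT lay in 12 of 18 (66.7%), against 42.1% of measured genes and 34.6% of all windows, and TTTGAA, the core of the CHR element of mitotic genes, lay in none, against 13.2% and 15.2%. A match is a string of letters and was not tested as a binding site.

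**Figure D1:**
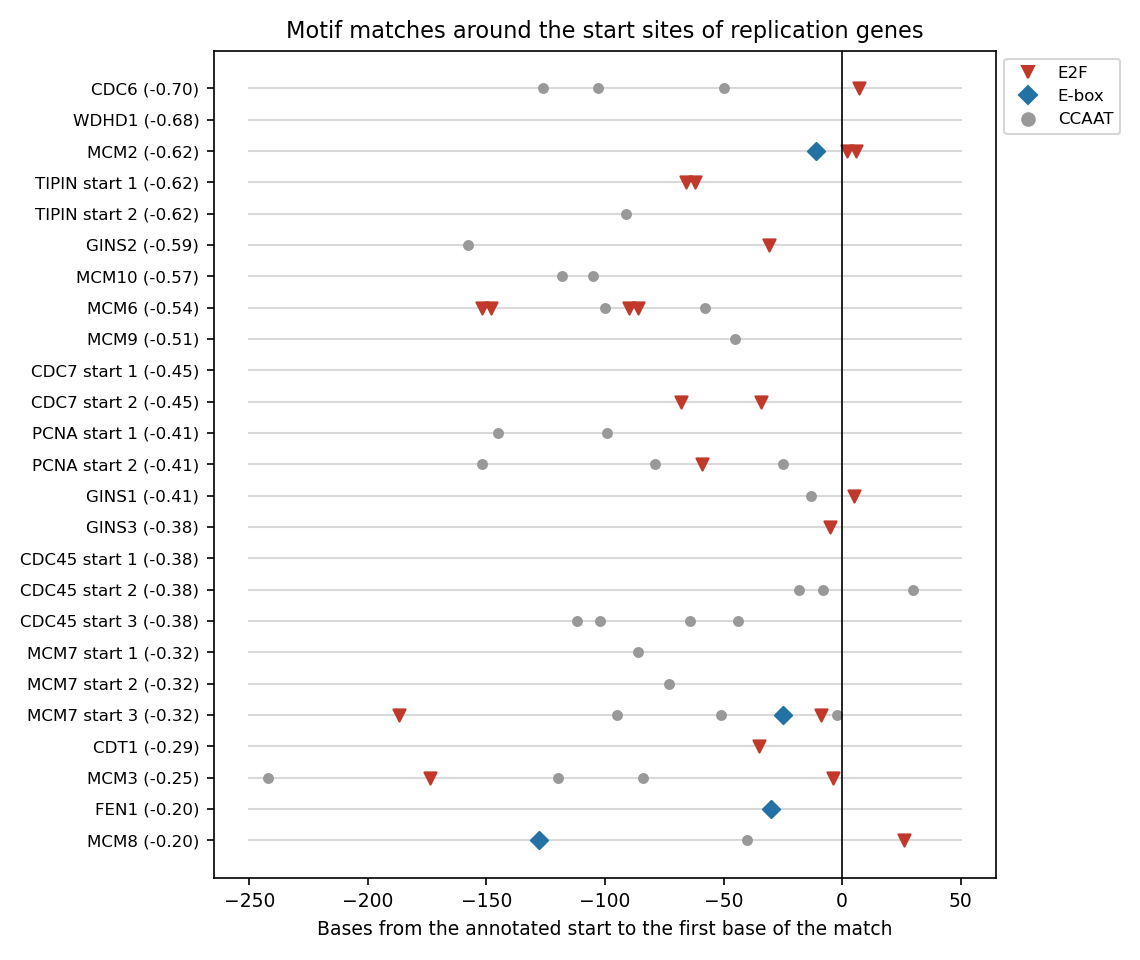
Positions of motif matches in the promoter windows of 18 replication genes, 1 line per annotated start, ordered by the log2 difference given in brackets; the x axis is bases from the start. E2F matches (red triangles) lie in windows of 13 genes and E-boxes (blue diamonds) in 4. Of these, MCM2 is near the top of the order, MCM7 is in its lower part, and FEN1 and MCM8 are last.

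The arrays measured each transcript with 1 or more probe sets, and values are RMA levels on the log2 scale. The difference is the MYCN siRNA level minus the control siRNA level; whether both arrays went through 1 RMA run is not stated in the labels. A gene counted as measured when it reached its array's median over all rows, 4.60 with control siRNA and 4.55 with MYCN siRNA, on either array; all 21 passed, and 10592 genes in all. Differences between probe sets of 1 gene had an SD of 0.31 per probe set over 374 genes, and of 0.17 over the 29 whose probe sets both lay at 7 or above, a level chosen after the values were seen. All probe sets read the same 2 RNA samples, so this SD leaves out the spread between cultures.

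Of the 21 genes, 20 were lower in the MYCN siRNA array, against 48.0% of all measured genes and 45.3% of the 7956 within the same range of mean level. The median difference was −0.41 (1.33-fold lower), against 0.01 for all measured genes and 0.04 for those of like level. At a threshold of 1.5-fold, 5 of 21 were lower, against 5.79% of all measured genes and 6.17% of those of like level, and none was higher, against 8.81%. After each array was centred on its median, 2 were 1.5-fold lower, CDC6 and WDHD1, against 4.68% of all measured genes. With 16 added to the linear values 3 were, against 3.93%. After quantile normalization 4 were, against 5.83%, and after loess 4, against 5.54%. At a smaller threshold, a log2 difference of −0.32, 15 of 21 were past it (background 17.6%), and at 2-fold none was (background 1.16%). The shift was thus shared by nearly all of these genes and small in each. In RNA from whole cultures, fewer cells at a stage that uses these genes and less RNA per cell cannot be told apart.

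**Figure D2:**
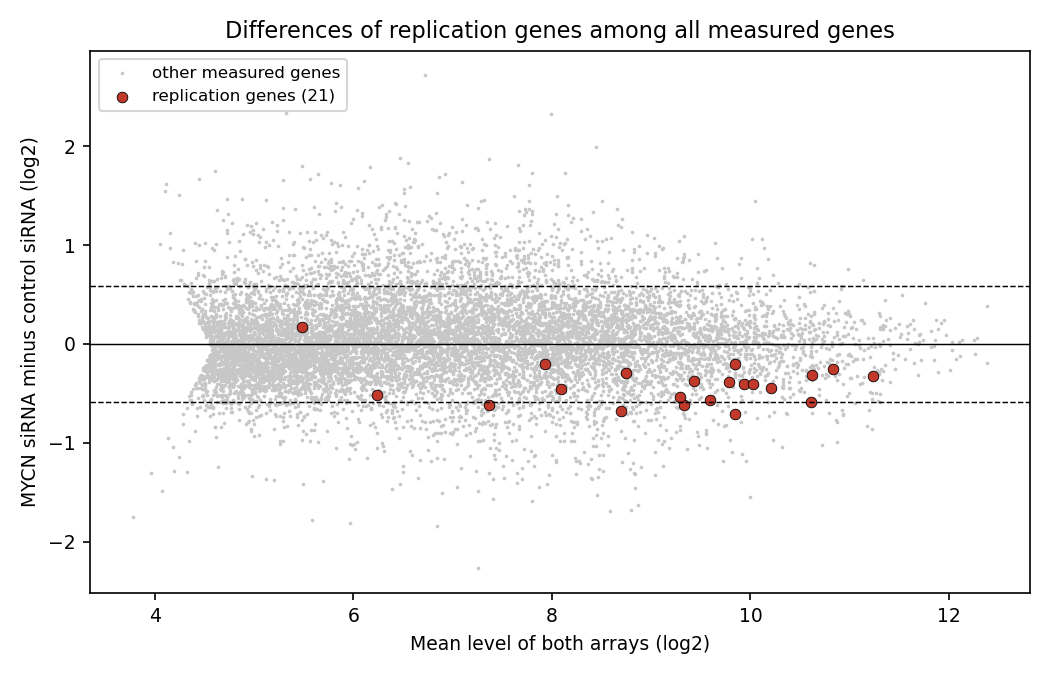
Log2 difference (y axis, MYCN siRNA minus control siRNA) against mean log2 level (x axis) for 10592 measured genes, 1 point per gene, with dashed lines at 1.5-fold. The 21 replication genes (red) lie below 0 except GINS4, and 5 lie at or beyond the lower line.

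Both measured loaders of the helicase were lower. CDC6, the ATPase that brings MCM2-7 to origins, was at 10.2 with control siRNA and 9.49 with MYCN siRNA. Its difference of −0.70 (1.63-fold lower) was the lowest of all members, and 3.48% of measured genes lay as low. CDT1, its partner in loading, was at 8.90 and 8.6 (−0.29, 1.23-fold lower). They lay 0.41 apart, less than the SD of 0.44 of a gap between 2 probe sets over all pairs. That distance was more than the 0.24 of the pairs at 7 or above. Whether CDC6 and CDT1 differ is therefore not established. Geminin, the inhibitor of CDT1, was not analysed here.

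All 6 subunits of the MCM2-7 ring, the motor of the replicative helicase, were lower (48.0% of all measured genes were), with a median of −0.38. MCM2 went from 9.64 with control siRNA to 9.02 with MYCN siRNA (−0.62, 1.53-fold lower). MCM6 was at 9.56 and 9.02 (−0.54, 1.45-fold) and MCM5 at 10.4 and 9.98 (−0.45, 1.36-fold). MCM2, MCM5 and MCM6 thus gave the larger differences of the ring. MCM7 was at 11.4 with control siRNA and 11.1 with MYCN siRNA (−0.32). MCM4 was at 10.8 and 10.5 (−0.31, 1.24-fold), and MCM3 at 11.0 and 10.7 (−0.25, 1.19-fold). MCM2 and MCM3 lay 0.37 apart, which is less than that SD of 0.44 and more than the 0.24 of the brighter pairs. An order within the ring is therefore not established by these arrays.

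MCM8 and MCM9, which form a separate helicase used in recombination repair, are named in the same family. MCM9 was at 6.49 with control siRNA and 5.98 with MYCN siRNA (−0.51, 1.43-fold lower). MCM8 was at 9.94 and 9.74 (−0.20, 1.15-fold), the least lowered of the 20.

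The genes that activate the ring were lower in 6 of 7, against the background of 48.0%, with a median of −0.41. MCM10, which helps the loaded helicase start to unwind, went from 9.88 to 9.31 (−0.57, 1.48-fold lower) and lay just outside the 1.5-fold threshold. CDC7, the kinase that phosphorylates the ring, went from 8.32 to 7.86 (−0.45, 1.37-fold), and CDC45, which binds it, from 9.62 to 9.25 (−0.38, 1.30-fold). MCM10, CDC7 and CDC45 were thus all lower, by 1.30-fold to 1.48-fold.

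GINS is a complex of 4 subunits that completes the helicase. GINS2 went from 10.9 with control siRNA to 10.3 with MYCN siRNA (−0.59), just inside the 1.5-fold threshold. GINS1 was at 10.2 and 9.82 (−0.41, 1.33-fold) and GINS3 at 9.98 and 9.60 (−0.38, 1.30-fold). GINS4 alone was higher, at 5.40 and 5.57 (0.17), and its 2 probe sets disagreed. The brighter one went from 7.52 to 7.27 (−0.25), while the dimmer one, at 3.27 and 3.87 (0.60), lay under the median of all rows in both arrays. With the brighter probe set alone, all 21 genes were lower.

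At the fork, PCNA, the ring that tethers polymerases to DNA, was at 10.1 with control siRNA and 9.73 with MYCN siRNA (−0.41, 1.33-fold lower). FEN1, the flap nuclease of the lagging strand, was at 8.03 and 7.83 (−0.20, 1.15-fold). WDHD1, also called AND-1, the adaptor between helicase and polymerase alpha, went from 9.03 to 8.35 (−0.68, 1.60-fold lower). TIPIN, the partner of TIMELESS in the fork protection complex, went from 7.67 to 7.06 (−0.62, 1.53-fold). The adaptors were thus 2 of the 5 genes past 1.5-fold, with CDC6, MCM2 and GINS2; after median centring TIPIN was at −0.57, short of it.

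**Figure D3:**
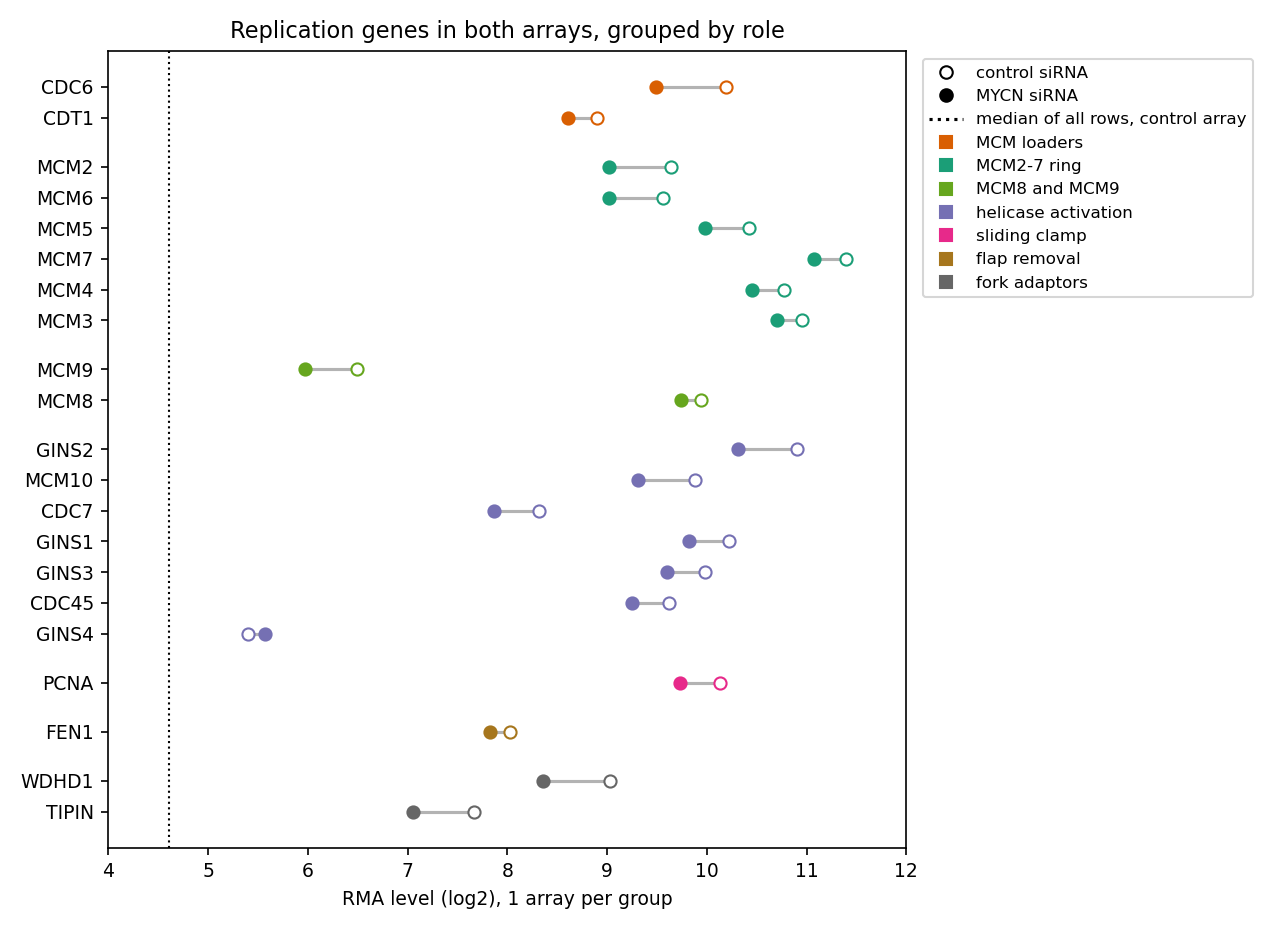
RMA level (log2, x axis) of each of the 21 genes in the control siRNA array (open circles) and the MYCN siRNA array (filled circles), coloured by role; the dotted line is the median of all rows in the control array. The filled circle lies to the left in 20 genes and to the right in GINS4; levels of different genes are not comparable.

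By stage, the 8 licensing genes (CDC6, CDT1 and MCM2-7) were all lower, 2 of them by 1.5-fold, with a median of −0.38. The 13 others were lower in 12, 3 of them by 1.5-fold, with a median of −0.41. Both are set against 48.0% of all measured genes lower and 5.79% lower by 1.5-fold. PCNA, the one measured gene of polymerases and clamp loading, was also at −0.41. These medians lie close together, and whether the stages differ cannot be tested with 1 array per group. Ordered by difference, the 20 lowered genes lay between 0.0014 and 0.058 from their neighbours, so no neighbours are told apart.

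Other replication genes that the symbol rule does not take were read from lists, also chosen with earlier results of these data known. Their counts are set against 48.0% of all measured genes lower, 5.79% lower by 1.5-fold and 8.81% higher by 1.5-fold. The firing factors were lower in 7 of 7 (median −0.36), none by 1.5-fold. TICRR, which brings CDC45 to origins with TOPBP1, was at 9.40 with control siRNA and 8.92 with MYCN siRNA (−0.48), DBF4, the activator of CDC7, at 7.33 and 6.98 (−0.35), and RECQL4 at 7.05 and 6.76 (−0.29). These values lay within the range of the members. Of 11 fork protection and checkpoint genes, 6 were lower (median −0.13), a share near the background of 48.0%; 1 gene passed 1.5-fold upward and none downward. TIMELESS was at −0.35, the clamp subunit RAD9A at −0.54 and RAD17, which loads that clamp, at 0.64 (7.89 and 8.52). CLSPN, claspin, was at 0.23 as a mean of probe sets at −0.15 and, for one below the array medians, 0.60. The single measured alternative clamp loader gene, DSCC1, was at −0.32.

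The G1/S regulators were wider apart. Of 15, 9 were lower (background 48.0%) and 3 of them by 1.5-fold (background 5.79%), with a median of −0.29. CCNA2, cyclin A2, went from 10.8 to 9.80 (−1.04, 2.06-fold lower), while E2F7, an E2F repressor, went from 8.15 to 8.66 (0.51). Of the activator E2Fs, which switch on replication genes, E2F1 was at −0.08, E2F2 at −0.39 and E2F3 at −0.30; their partner TFDP1 was at −0.29, and E2F8, another repressor, at −0.88. Of the E2F genes named here, E2F7 alone was thus higher (background 48.0% lower).

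Enzymes that supply or break down deoxynucleotides, some of them S phase genes as well, had a median of 0.01 over 8 genes. Of these, 4 were lower and 4 higher (background 48.0% lower). After median centring or quantile normalization 2 of 8 were lower. DCTPP1, a pyrophosphatase that clears modified nucleotides, was at −0.99 (11.4 and 10.4), and RRM2B, the p53-induced ribonucleotide reductase subunit, at 0.96 (6.54 and 7.50). Nucleosome assembly genes were lower in 7 of 8, most by little (median −0.10), from NASP, a histone chaperone, at −0.57 to ASF1B at 0.15; 5 of 8 were lower after median centring. Genes of licensing control by degradation were lower in 4 of 6 (median −0.17, background 48.0% lower), from CUL4A at −0.64 to its paralog CUL4B at 0.47.

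Of the 4 measured Okazaki fragment and topoisomerase genes 2 were lower (median −0.06, background 48.0% lower), from TOP1 at −0.35 to TOP2B at 0.18. The translesion and repair polymerase list had 4 measured members, 1 of them lower. PRIMPOL, a primase that restarts stalled forks, went from 7.15 to 7.93 (0.77, 1.71-fold higher), and MAD2L2 was at −0.21. Their median was 0.34, and 0.07 with 16 added to the linear values, where POLK counted as measured. Differences between the lists could not be tested with 1 array per group.

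**Figure D4:**
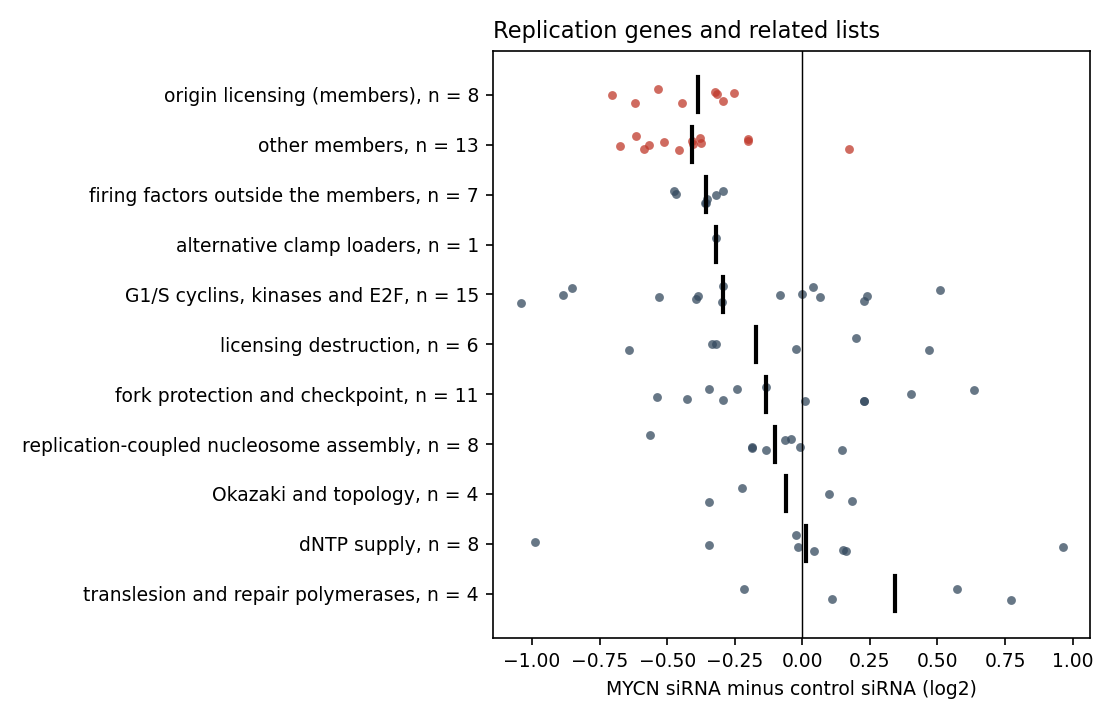
Log2 difference (x axis) of each measured gene, 1 point per gene with a black bar at the median, for the replication genes (red) and for 9 related lists (dark). Licensing genes, other members and firing factors lie below 0 except GINS4, while genes of deoxynucleotide supply or breakdown lie on both sides.

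MCM7 carries the precursors of 3 microRNAs within its gene on the same strand, and their mature sequences are shown because the array has probe sets named for them. RefSeq on GRCh38.p14 gives 6 mature forms; the main arms follow, with the seed (bases 2 to 8) in capitals.

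hsa-miR-106b-5p: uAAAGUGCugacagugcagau

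hsa-miR-93-5p: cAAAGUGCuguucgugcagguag

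hsa-miR-25-3p: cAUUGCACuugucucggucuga

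The first pair share the seed AAAGUGC, and miR-25-3p has AUUGCAC. The probe set named MIR106B was at 6.05 with control siRNA and 5.59 with MYCN siRNA (−0.46), that named MIR25 at 6.50 and 5.85 (−0.65), and that named MIR93 at 4.61 and 4.49 (−0.12). All 3 were lower, against 48.0% of all measured genes, but MIR93 lay close to the array medians. MIR25 was lower by 1.5-fold, against 5.79% of all measured genes. These rows were chosen after their values were seen. These probe sets were not shown to read mature microRNAs.

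The sample labels were set against markers of neuroblastoma cells. Of 14 adrenergic neuroblastoma markers 11 had a named row, and these lay from 6.47 to 11.7 with control siRNA and from 6.53 to 11.7 with MYCN siRNA, with STMN2, a neuronal microtubule protein, highest. Their differences ran from −0.43 for ISL1 to 1.45 for DBH, the enzyme that makes noradrenaline, with a median of 0.08. Named rows were found for 12 of 23 markers of other cell types. Endothelial markers (VWF at 0.02, KDR at −0.65) lay from 4.0 to 4.68 over both arrays, near the array medians, and epithelial markers (3 genes, KRT18 highest) from 3.83 to 6.04. Of 2 Schwann cell markers, S100B, a glial calcium-binding protein, was at 5.90 with control siRNA and 6.92 with MYCN siRNA (1.02), and SOX10, a glial transcription factor, at 6.19 and 5.91 (−0.28). Of 2 fibroblast markers, the matrix protein lumican (LUM) was at 6.54 and 5.37, and DCN lay below the array medians in both. The macrophage-rich lysosomal gene CD68 was at 7.27 with control siRNA and 9.0 with MYCN siRNA, and the blood markers CD14 and CSF1R lay at or below 4.64. The part of other cells in the replication gene values was not tested.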

How the data were processed

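RNA of 2 BE(2)C cultures, 1 per group, was hybridised to 1 array each after labelling 100 ng. The table holds 46255 rows, each a deposited log2 value per array. The authors used RMA, as the submitters' processing notes say; settings and software: not given in the sources used here. RMA as usually run makes arrays alike in distribution, so a change in total RNA per cell would not show. The control sample is titled as a reanalysis, unexplained in the labels, and no source used here says whether both arrays were normalized in 1 RMA run; if they were not, the differences would include that of the runs. The platform annotation gave 15835 rows 1 gene symbol and left 30420 unnamed here; symbols were updated through RefSeq (GRCh38.p14).

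Probe sets of a gene were averaged, and genes below the array median in both arrays were left out. No count model or test was run, since 1 array per group leaves no residual degrees of freedom. Counts are to be read beside the shares over all measured genes. Members, lists and motifs were chosen with earlier results of these data known. Every member is named; of each related replication list the lowest and highest genes are named, with the partners DBF4, TIMELESS and CLSPN, and of each marker list the gene of highest level; the E2F and TFDP1 genes other than E2F7, SOX10, ISL1, DBH, KDR, DCN, CD14, CSF1R, the microRNA rows and the genes across shared promoters were chosen after their values were seen. The scripts were tested on simulated shifts. Python 3.11.15, pandas 2.3.3 and statsmodels 0.14.6 were used. Alternatives were median centring, quantile normalization, loess (span 0.3), the brightest probe set, no filter, a filter at the 70th percentile, an offset of 16 on linear values, and thresholds of 0.32 and 1 on the log2 scale.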

Additional observations from a re-analysis of the deposited data

How the results depend on the processing

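No paired analysis was possible because each group is 1 array. The comparison of licensing with polymerases and clamp loading, as a difference of medians, was not run, since PCNA alone was measured on one side. Under the 7 other settings of normalization, filter, probe set and offset, 20 of 21 genes kept their sign; GINS4 was at −0.25 with its brightest probe set. The median over all members ran from −0.43 to −0.36, that of licensing from −0.38 to −0.33 and that of helicase activation from −0.43 to −0.36. The count of members at least 1.5-fold lower was 5 as reported, against 5.79% of all measured genes. It was 2 after median centring (4.68%), which puts the median of all measured genes at 0.06. It was 3 with 16 added to the linear values (3.93%), and 4 after quantile normalization (5.83%) and after loess (5.54%). At a threshold of 0.32 on the log2 scale the count was 15 (17.6%), and at 2-fold 0 (1.16%). The genes past 1.5-fold lay close to it, so that count depends on the scaling. With the filter at the 70th percentile 20 members remained measured. No setting stands in for a replicate.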

Other observations

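Several of the replication genes share a start region with a neighbour on the other strand. In the RefSeq starts of GRCh38.p14, 8 pairs had starts within 1000 bases, reading away from each other, and 5 of the neighbours had a named row. SOCS4, whose start lies 137 bases from that of WDHD1, was at 9.20 with control siRNA and 9.43 with MYCN siRNA (log2 difference 0.23, against −0.68 for WDHD1). MAP2K1, the kinase MEK1, 195 bases from 1 of the 2 annotated starts of TIPIN, was at 8.95 and 9.16 (0.21, against −0.62). CDS2, an enzyme of phosphatidylinositol synthesis, 386 bases from 1 of the 2 annotated starts of PCNA, was at 8.59 and 9.57 (0.99, against −0.41). Which start these cells use was not tested. In these pairs the neighbour was higher where the replication gene was lower. The differences of SOCS4 and MAP2K1 were smaller than the SD of 0.31 per probe set. TMEM258, 312 bases from FEN1, was at 6.72 and 6.70 (−0.02, against −0.20), and TRMT6, a tRNA methyltransferase subunit 119 bases from MCM8, was at 9.01 and 8.58 (−0.43, against −0.20). Neighbours thus went both ways, as measured genes did at large, of which 48.0% were lower. PCNA-AS1, the antisense gene at PCNA, was at 6.71 and 6.32 (−0.39), close to the −0.41 of PCNA; whether its probe set is free of signal from PCNA was not tested. These pairs were looked up after the values of the members were seen, and none has a replicate.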
